A study of Macaca fascicularis with 64 samples.

Results

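β-cells of cynomolgus monkey islets were split by their insulin level, and in each animal the cells in the top one of 3 equal groups by INS level were compared with those in the bottom one. A β-cell was a cell with over 800 macaque genes and over 10000 unique molecular identifiers (UMIs, tags that mark single cDNA molecules) in which INS was the highest of the 4 islet hormones INS, GCG, SST and PPY, reached at least 20000 CPM (counts per 1000000 macaque UMIs), and was at least 2 times the second hormone. Of 6141 cells in all, 5908 passed the limits on genes and UMIs and 1086 were β-cells by this rule. The 13 animals with 20 or more of them held 1045, of which 344 were INS-high, 344 INS-low and 357 in the middle. The other 3 animals, with 41 β-cells, were left out of the tests.

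The study picked single cells by mouth pipette from pancreas of 8 young and 8 old monkeys, each age with 4 females and 4 males, and sequenced them in 64 libraries, 4 per animal. The labels name no treatment or genetic change, and the animals are called here by age, sex and number, such as young female 1. The comparison used 2 young females, 4 young males, 4 old females and 3 old males. The libraries use one set of 96 cell barcodes, 93 of which occur in every library, and no cell name occurs more than once.

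Insulin is made as a precursor that enters the endoplasmic reticulum (ER), loses its signal peptide, folds with the help of chaperones and is cut to the mature hormone in secretory granules. In β-cells its gene is driven by transcription factors such as PDX1, MAFA and NKX6-1. Insulin mRNA is among the most abundant messages of these cells, so it takes a visible share of all transcripts counted in a cell.

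INS, GCG, SST and PPY chose the cells, so their values describe the split and were not tested. The rule admitted β-cells with INS levels between 22401 and 301102 CPM, and the highest INS level of a cell that had INS as top hormone but missed the minimum was 18698 CPM. The ratio of INS to the second hormone was 2.009 just inside the rule and 1.996 just outside it, and 127 cells with INS on top and above the minimum missed this ratio. The highest INS level in INS-low cells was between 43502 and 77564 CPM, depending on the animal, and the lowest in INS-high cells between 66116 and 109618 CPM. Medians of INS were between 35297 and 66186 CPM in INS-low cells (median over animals 46288) and between 76939 and 151215 CPM in INS-high cells (median 105264). The ratio of high to low was between 1.801 and 2.954, with a median of 2.21 in 6 young and 2.32 in 7 old animals.

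The β-cell label was checked against markers that the rule did not use. IAPP, the hormone stored with insulin, had a median over animals of 2804 CPM in INS-low and 2590 CPM in INS-high cells, against 36.4 and 48.5 CPM in GCG-low and GCG-high α-cells of the same animals. The glucose transporter SLC2A2 had 784 and 673 CPM in β-cells against 5.37 and 9.21 CPM in α-cells. MAFA had 87.1 and 115 CPM against 4.78 and 4.70 CPM. PDX1 was low in both kinds of cell, at 7.11 and 9.91 CPM in β-cells and 0.117 and 0.00 CPM in α-cells. Both groups of β-cells therefore carried the markers of the label.

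INS-high cells did not hold more INS UMIs. Median INS UMIs per cell were between 4645 and 6347 in INS-low cells (median over animals 5991) and between 3011 and 5715 in INS-high cells (median 5094), and they were lower in INS-high cells in 13 of 13 animals. The other genes' UMIs differed more. UMIs of macaque genes other than INS had medians per cell between 66319 and 166141 in INS-low cells (median over animals 115060) and between 23030 and 60668 in INS-high cells (median 44439), a geometric mean ratio of 0.336, lower in 13 of 13 animals and with no overlap between the groups. These UMIs form nearly all of the denominator of the INS level that ranked the cells. Their difference is therefore a description of the split and no p is given for it. Within an animal, the rank correlation of INS level and the other UMIs over its cells was between -0.918 and -0.650, with a median of -0.896, and both measures share that denominator.

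**Figure D1:**
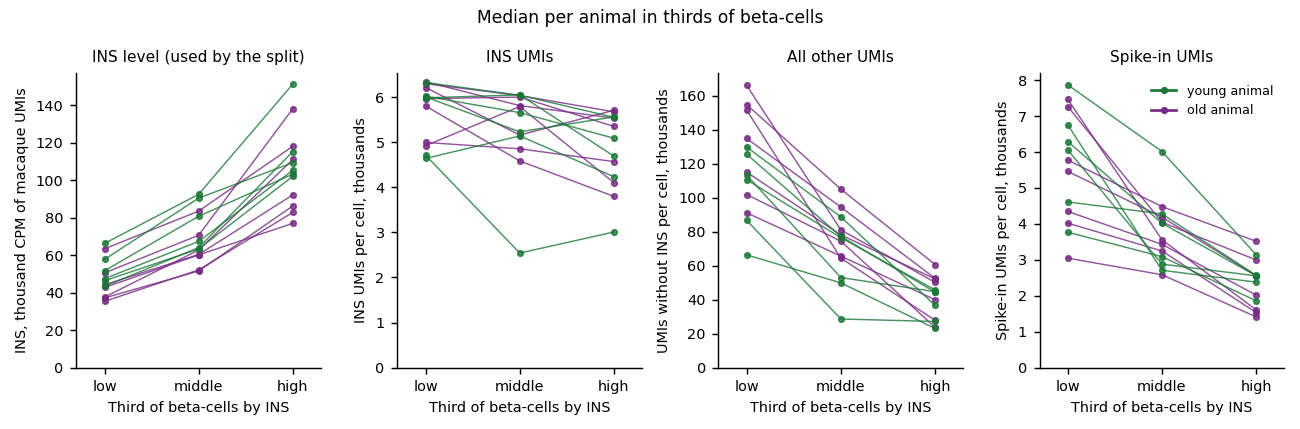
Medians per animal (points joined by a line, 13 animals, coloured by age) in the low, middle and high group of β-cells by INS: INS level in CPM, and INS UMIs, other macaque UMIs and spike-in UMIs per cell, all divided by 1000. INS level rises by construction, while INS UMIs fall slightly and the other UMIs and the spike-in UMIs fall in every animal from the low to the high group.

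Spike-in RNAs, of which the same mix is added to cells as a reference, were lower along with the other UMIs. Their median per cell was 5777 UMIs in INS-low and 2554 in INS-high cells, lower in 13 of 13 animals. As a share of all UMIs, spike-ins had a median over animals of 4.17% in INS-low and 4.68% in INS-high cells, and were higher in INS-high cells in 10 of 13 animals, with a mean difference of 0.497 percentage points ± 0.526 (SD, n = 13). Macaque UMIs are in the denominator of this share and of the INS level that ranked the cells. The share too is therefore a description, and no p is given for it. Per spike-in UMI, INS-high cells held 2.10 times as many INS UMIs and 0.828 times as many UMIs of other genes as INS-low cells, as geometric means over the animals. Low counts of a cell can come from less RNA or from fewer molecules captured; their part in the difference in UMIs was not tested.

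Fewer genes were seen in INS-high cells, with medians per cell between 1779 and 4794 against 3459 and 6236 in INS-low cells. Of INS-high cells, 16.9% had at most 3000 genes, against 0.872% of INS-low cells. When every cell was thinned at random to 5000 UMIs of genes other than INS, which left out 0 cells, medians were 1952 genes in INS-low and 1855 in INS-high cells. The mean difference remained at -149 genes ± 192 (SD, n = 13; exact sign-flip permutation test, two-sided, adjusted p = 0.000326 over 4 measures), lower in 13 of 13 animals. Old female 1 weighed most in this mean, which was -98.8 genes without that animal. With groups matched on total UMIs, described further on, the mean difference was -54.8 genes and no longer passed (exact sign-flip permutation test, n = 13, adjusted p = 0.0886). The 4 measures also held UMIs without INS, genes per cell and the spike-in share, for which no p is given here. GCG, a hormone used by the rule, stayed among the UMIs that were thinned.

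GCG, the glucagon gene of α-cells, was higher where INS was higher. The rule bears on this, since INS had to be at least 2 times the second hormone: a cell with less INS could hold less GCG, and the 127 cells that missed the ratio are not among the β-cells. Summed over the cells of a group and scaled to 1000000 UMIs without INS (the scale of all levels that follow), GCG was between 11233 and 21479 CPM in INS-low cells (median 15773) and between 21718 and 43687 CPM in INS-high cells (median 28841). It was higher in INS-high cells in 13 of 13 animals, the middle group lay between the others in 13 of 13, and the groups did not overlap. SST had medians of 247 and 433 CPM and PPY of 208 and 245 CPM, with wide overlap, and they were higher in INS-high cells in 10 and 8 of 13 animals. Of the 1086 β-cells, 4 had a second hormone under 5000 CPM, so nearly all carried another hormone's UMIs at a visible level. Whether these came from the cell itself was not tested.

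For the genes that the rule did not use, UMIs were added up within the INS-high and the INS-low cells of every animal, the 4 hormones were taken out, and the sums were tested with edgeR's quasi-likelihood test with the animal as a block. Sums held between 700479 and 8660040 UMIs in INS-low and between 214327 and 3284880 in INS-high cells, from 7 to 63 cells. Of 8078 genes with enough counts, 12 rose in INS-high cells and 0 fell at an adjusted p under 0.05 (0.149% and 0.0% of genes tested), and 441 (5.46%) had an unadjusted p under 0.05, 182 higher and 259 lower. DESeq2 called 23 risen and 3 fallen (0.285% and 0.0371%), the 12 among them. Limma was run on the mean of log values over cells, in which a shallow cell weighs as much as a deep one. It called 8 risen and 2225 fallen (0.099% and 27.5%), with a median log2 fold change of -0.25 over all genes. What part the lower depth of INS-high cells had in this was not tested. The 12 genes called by edgeR were TTR, GNAS, EGFR and 9 genes of the mitochondrial genome. Ranges of the INS-high and INS-low sums were free of overlap for 0 of 8078 genes (0.0%). The number of genes called does not measure how alike the groups were. Of the 12, 10 were among the 100 most abundant genes tested.

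The split of calls by direction depended on the scaling, for sums too. With library totals in place of the TMM factors of edgeR, 6 genes rose and 5 fell, and with INS also kept in the totals 5 rose and 64 fell. The median log2 fold change over all genes was -0.04 with TMM, -0.14 without and -0.23 with INS in the totals. Directions of genes near these medians are therefore relative to the other genes.

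TTR encodes transthyretin, a carrier of thyroid hormone and retinol that islet endocrine cells make, α-cells most. It was between 20348 and 45220 CPM in INS-low cells (median 28100) and between 31808 and 79761 CPM in INS-high cells (median 50044). INS-high was above INS-low in 13 of 13 animals, with the middle group between them in 13 of 13 (median 38026), although the ranges of the groups overlapped. The log2 fold change was 0.91 ± 0.03 (SE, edgeR adjusted p = 1.97e-18). It passed in 13 of 13 fits that left out an animal and in 13 of 13 other settings.

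TTR belongs to a list of 23 α-cell markers of which 14 of 21 in the files could be tested. It was the only one called as risen and none was called as fallen. Of the 14, 12 had a log2 fold change above 0, where 3574 of all 8078 genes tested did. The median log2 fold change of the list was 0.31 against -0.04 over all genes tested. With total UMIs matched, the list's median was 0.0097 against -0.0022 over all genes. The list summed to between 23816 and 54358 CPM in INS-low and between 34015 and 89777 CPM in INS-high cells, higher in 13 of 13 animals. Without TTR the sum was 5877 and 5196 CPM as medians over animals, higher in INS-high cells in 6 of 13. Most of that sum was PCSK1N, an inhibitor of prohormone convertase that β-cells also express, with medians of 4091 and 3295 CPM and higher in INS-high cells in 4 of 13. Without TTR and PCSK1N the other 19 genes summed to 1387 and 1469 CPM as medians, higher in INS-high cells in 11 of 13. Among these, the protease FAP had 21.4 and 34.5 CPM, higher in 13 of 13, and the vitamin D carrier GC had 34.1 and 47.4 CPM, higher in 11 of 13. The α-cell transcription factor IRX2 had medians of 27.1 and 34.0 CPM, higher in 8 of 13. Medians of some other markers were lower in INS-high cells. SMIM24 had 93.4 and 69.4 CPM, higher in 7 of 13, and SPINT2 had 430 and 420 CPM, higher in 6 of 13. With TMM the log2 fold change of SPINT2 was above 0, between 0.01 and 0.07 in fits that left out an animal. F10 and POPDC3, at low levels, were higher in 5 and 3 of 13. The membrane protein TM4SF4 had 356 and 372 CPM (log2 fold change 0.28 ± 0.11, edgeR adjusted p = 0.852). No gene of this list other than TTR passed the threshold, and what part α-cell RNA had in the difference of TTR was not tested.

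GNAS encodes the stimulatory G protein subunit through which receptors such as that for GLP-1 raise cAMP. It was between 5795 and 11862 CPM in INS-low cells (median 9052) and between 7133 and 19292 CPM in INS-high cells (median 12301). It was higher in INS-high cells in 13 of 13 animals, by a log2 fold change of 0.47 ± 0.06 (SE, edgeR adjusted p = 4.92e-05).

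The mitochondrial genome codes for 13 proteins of the respiratory chain and ATP synthase, all 13 of which were tested, and 9 rose. Nuclear copies of these genes exist, so which copy a UMI came from is uncertain. Of the 9, 4 belong to cytochrome c oxidase, ATP synthase or the cytochrome bc1 complex (COX2, COX3, ATP6 and CYTB), and the others to complex I (ND1, ND2, ND4, ND5 and ND6). COX3 had medians of 11190 CPM in INS-low and 13713 CPM in INS-high cells, higher in 13 of 13 animals (log2 fold change 0.45 ± 0.04, edgeR adjusted p = 5.83e-07). Its level in INS-low cells was 2395 CPM in old male 1 and 3157 CPM in young male 1, against 9332 CPM or more in the other animals. ATP6 had 6497 and 7358 CPM, higher in 13 of 13. Log2 fold changes were 0.59 ± 0.07 for COX2, 0.58 ± 0.11 for ND6, 0.42 ± 0.07 for ND5, 0.40 ± 0.07 for ND4, 0.36 ± 0.05 for ATP6, 0.35 ± 0.06 for ND2, 0.30 ± 0.06 for ND1 and 0.29 ± 0.05 for CYTB. CYTB was higher in 10 of 13 animals, with medians of 5108 and 5039 CPM, so its medians do not show the paired rise. Not past the threshold were COX1 (log2 fold change 0.12 ± 0.10), ND3 (0.10 ± 0.07), ND4L (0.24 ± 0.13) and ATP8 (0.80 ± 0.22, edgeR adjusted p = 0.404). Within cells, the share of UMIs without INS taken by these genes had a median of 5.14% in INS-low and 6.88% in INS-high cells.

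Levels of COX2 and EGFR were very unequal between animals. COX2 was still higher in INS-high cells in 13 of 13 animals, and its call passed in 13 of 13 fits that left out an animal. COX2 was between 10054 and 21991 CPM in the INS-low cells of 11 animals, but 620 CPM in old male 1 and 26.7 CPM in young male 1, and α-cells of the same 2 animals were as far apart from the rest, at 462 and 24.0 CPM in their GCG-low cells. EGFR, the receptor for epidermal growth factor, was at 0.00 to 2.51 CPM in both groups of young female 1, young males 1 to 3 and old male 1. In young male 4 it was at 95.05 CPM in INS-low and 427 CPM in INS-high cells, and in old female 3 at 106 and 298 CPM. It was higher in INS-high cells in 8 of 13 animals, and its log2 fold change was 1.39 ± 0.27 (SE, edgeR adjusted p = 0.0283). Leaving out any one of 7 animals (old females 2, 3 and 4, old males 2 and 3, young female 4 and young male 4) ended this call, with adjusted p up to 0.314. ND6 was likewise lost in 6 of 13 such fits (without old females 1, 2 or 3, old male 2, or young males 1 or 4), with adjusted p up to 0.0968, while the other 10 genes passed in 13 of 13. Over 13 other settings of the processing the mitochondrial calls were less steady: COX2 and COX3 passed in 12, as did GNAS, but ATP6, ND2, ND4 and ND5 in 8, and CYTB, ND1 and ND6 in 6. EGFR passed in 7.

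The 3 animals with too few β-cells were not used by the rule's comparison and give values without a test. Split in the same way, with 5, 2 and 5 cells in each group, TTR was 27946 against 44572 CPM (low against high) in old male 4, 48445 against 90097 CPM in young female 2 and 33158 against 59629 CPM in young female 3. GNAS was 10513 against 13211, 10056 against 11589 and 6622 against 7775 CPM. Of the 12 genes, 8 were higher in the INS-high group in all 3 animals, and of the 36 pairs of gene and animal 32 were higher. How often other genes were higher in these animals was not counted, so there is no share to judge these counts against.

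The 20 most abundant genes had a higher median fold change than the rest, with no steady trend below them. Of these 20 (2877 CPM or more), 16 had a log2 fold change above 0, 9 passed the threshold and the median was 0.19. The genes among them that did not pass lay between -0.29 and 0.23. Of the next 80, 26 were above 0 and the median was -0.05, with 1 called. The 400 genes after those had a median of -0.07, the following 1500 of -0.03 and the remaining 6078 of -0.04. The median SE grew from 0.07 in the 20 most abundant to 0.36 in genes beyond rank 2000, so among low genes only large differences could pass. Abundant genes of other functions did not pass: the sodium pump regulator FXYD2 had a log2 fold change of 0.15 ± 0.07, the granule protein SCG3 of 0.09 ± 0.07, the elongation factor EEF1A1 of 0.23 ± 0.08 and the ribosomal protein RPL37 of -0.29 ± 0.07. RPL37 passed as fallen in other settings: no filter, no TMM, INS kept in the totals, and limma. In these settings 8 of 16719, 5 of 8078, 64 of 8117 and 2225 of 8078 genes fell, in that order.

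**Figure D2:**
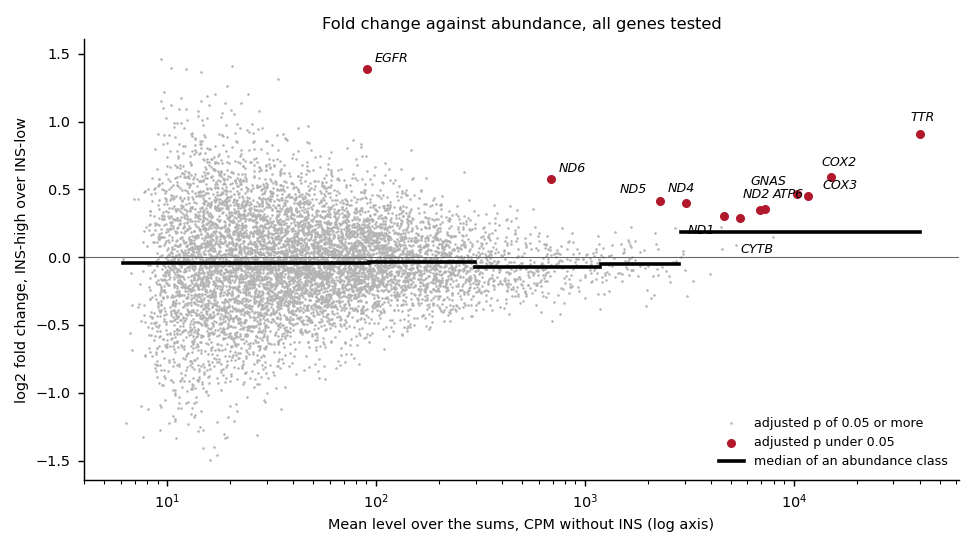
Log2 fold change of INS-high over INS-low β-cells against mean level in CPM without INS (log axis) for the 8078 genes tested. Red points passed the threshold of 0.05 and are named, grey points did not, and black bars mark the median of 5 classes of abundance. Most red points lie among the 20 most abundant genes, where the median is 0.19.

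Because depth and INS level were tied, a comparison of cells matched on total UMIs was added after the values had been seen. In each animal, cells were put in order of their macaque UMIs and taken in runs of 3, and the cell with the highest INS level of each run was set against the cell with the lowest. The medians of UMIs without INS were then 76318 in low and 73479 in high cells, and still lower in high cells in 10 of 13 animals. Other signs of depth were not matched by this: genes per cell were 4777 and 4598, lower in high cells in 12 of 13 animals, and the spike-in share was 4.37% and 4.46%, higher in 11 of 13. INS was 55752 against 76270 CPM, a 1.37-fold difference in place of 2.24-fold, and INS UMIs were higher in high cells in 13 of 13 animals. Cells of near-equal total UMIs were ranked by INS level, so more INS UMIs and fewer other UMIs in high cells come with this choice. Of 8669 genes, 5 rose and 0 fell by edgeR (0.0577% and 0.0%), and 271 (3.13%) had an unadjusted p under 0.05. All 5 were among the 12: TTR (log2 fold change 0.47 ± 0.03, adjusted p = 2.45e-11), ND5 (0.35 ± 0.05), GNAS (0.33 ± 0.03, adjusted p = 8.99e-07), COX2 (0.25 ± 0.04) and COX3 (0.25 ± 0.04). TTR and GNAS were higher in 13 of 13 animals here too. The mitochondrial genes that passed went from 9 to 3, although 12 of 13 had a log2 fold change above 0. EGFR was 0.26 ± 0.26 and ND4 0.05 ± 0.06 and did not pass. GCG stayed higher in high cells in 13 of 13 animals, at 18453 against 22119 CPM. The median of the 20 most abundant genes was 0.15.

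The same split was made in α-cells by GCG, with the rule mirrored, in the same 13 animals. GCG-high α-cells were also shallower, with 37413 UMIs without GCG per cell against 92247 in GCG-low cells as medians over animals, and lower in 13 of 13. They held 5300 against 6009 GCG UMIs. INS, here the other hormone, was higher in GCG-high cells in 12 of 13 animals. Of 10896 genes, 18 rose and 3 fell (0.165% and 0.0275%), and all 12 genes called in β-cells were called in α-cells too. TTR went from 61415 to 136010 CPM in α-cells.

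A test of the difference between the 2 splits, in 1 edgeR model over both cell types, called 0 genes higher and 2 lower in β-cells of 11099 (0.0% and 0.018%), with 490 (4.41%) at an unadjusted p under 0.05. The log2 fold change of TTR was smaller in β-cells, with a difference of -0.46 ± 0.05 (SE, edgeR adjusted p = 1.99e-06). SLC2A2 was the other, at -0.91 ± 0.17 (adjusted p = 0.0229). Its level in α-cells was 5.37 and 9.21 CPM, and this call was lost without any one of old males 1, 2 and 3, young females 1 and 4 and young male 1 (adjusted p up to 0.117). For the 11 other genes called in β-cells the difference lay between -0.08 and 0.15, with SEs from 0.06 to 0.31, and did not pass. With both cell types matched on depth, 0 genes passed in 11468, with 549 at an unadjusted p under 0.05. The α- and β-cells come from the same libraries, so these 2 comparisons are not independent.

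**Figure D3:**
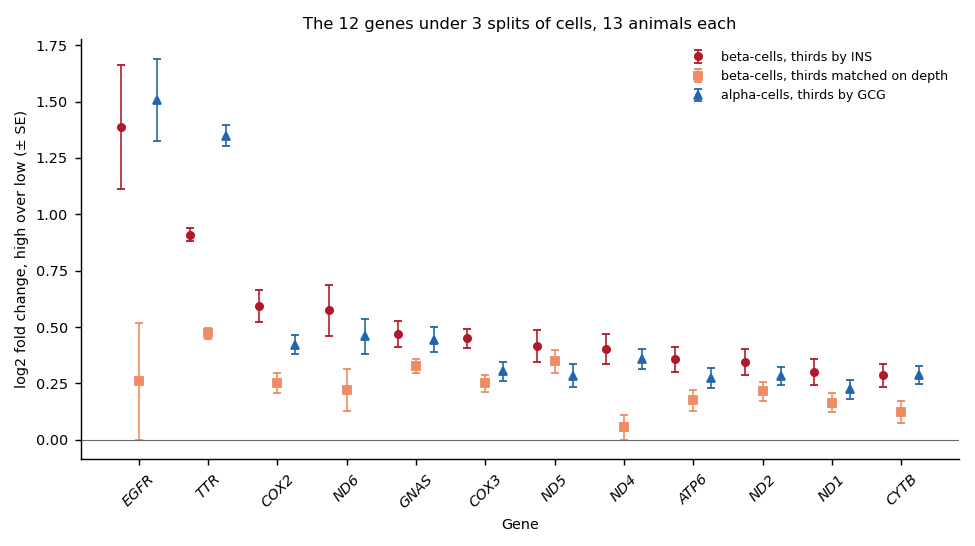
Log2 fold change (± SE, edgeR, 13 animals) of the 12 genes between high and low cells for β-cells split by INS (circles), β-cells split by INS with total UMIs matched (squares) and α-cells split by GCG (triangles). TTR has 0.91, 0.47 and 1.35, and with total UMIs matched the values of β-cells are smaller for every one of the 12 genes.

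Genes known for insulin synthesis were then read by list, from 22 lists with 427 distinct members tested. In 21 of the lists no member passed, where 0.149% of all genes did. Of the 427 members 50 had an unadjusted p under 0.05, where 441 of 8078 genes did (5.46%). Among 16 β-cell transcription factors, 13 had a log2 fold change above 0 and the list's median was 0.11. MAFA, which activates the insulin promoter, had 31.5 to 210 CPM in INS-low cells and 32.7 to 253 CPM in INS-high cells, with medians of 87.1 and 115, and was higher in 10 of 13 animals (log2 fold change 0.48 ± 0.18, unadjusted p = 0.0141 and adjusted p = 0.852 by edgeR). NKX6-1, needed for β-cell identity, had medians of 155 and 207 CPM (0.45 ± 0.22, edgeR adjusted p = 0.872). FOXA2, a factor of the endoderm lineage, had 41.5 and 62.8 CPM (0.58 ± 0.25, edgeR adjusted p = 0.872). NEUROD1 had 87.0 and 68.5 CPM, with a log2 fold change of -0.29 ± 0.25. None of these values passed over all genes tested.

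Granule cargo had 18 members tested and a median of 0.03. The prohormone convertases PCSK1 and PCSK2, which cut proinsulin, had log2 fold changes of -0.01 ± 0.12 and 0.24 ± 0.12. The carboxypeptidase CPE, which trims the cut ends, had 0.22 ± 0.08, and IAPP 0.04 ± 0.07. In the 22 genes of glucose sensing and secretion the median was 0.15. ABCC8, the sulfonylurea receptor of the potassium channel that closes on glucose, had medians of 1288 and 1386 CPM (0.18 ± 0.08), and SLC2A2 of 784 and 673 CPM (-0.10 ± 0.11). None of these genes passed.

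ER chaperones had 30 members tested, 15 of them above 0, and a median of 0.00. The BiP gene HSPA5 had medians of 672 and 682 CPM (log2 fold change 0.21 ± 0.11), and ERO1B, the oxidase that forms disulfide bonds in β-cells, of 1584 and 1503 CPM (0.22 ± 0.11, edgeR adjusted p = 0.872). The translocon and signal peptidase genes, which let preproinsulin into the ER, had a median of -0.09, with 9 of 36 above 0. SEC11C, a catalytic subunit of signal peptidase, had medians of 1236 and 981 CPM, lower in 13 of 13 animals (-0.38 ± 0.12, unadjusted p = 0.00359 and adjusted p = 0.744 by edgeR). SEC11C passed as fallen with no filter on low counts, with INS kept in the totals and with limma. In these settings 8 of 16719, 64 of 8117 and 2225 of 8078 genes fell. The median log2 fold change over all genes was -0.23 with INS in the totals and -0.25 with limma. SPCS1 of the same complex had 1102 and 815 CPM (-0.25 ± 0.08) and passed with INS in the totals and with limma. On the CPM scale, before TMM, 24 of the genes tested were lower and 8 higher in INS-high cells in every animal (0.297% and 0.099%). With total UMIs matched SEC11C had -0.10 and SPCS1 0.04.

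The stress lists had no member past the threshold. The IRE1 and ERAD list had a median of 0.01 over 23 genes, the PERK and ATF4 list of 0.20 over 16, and heat shock proteins of -0.07 over 16. ATF4 itself had medians of 136 and 138 CPM (log2 fold change 0.31, edgeR adjusted p = 0.8915). Among 15 immediate-early genes, which rise when cells are stimulated or handled, the median was 0.29, with EGR1 at 140 and 219 CPM (0.31 ± 0.14) and FOS at 192 and 204 CPM (0.29 ± 0.16). With total UMIs matched the median of that list was -0.10. SOD2, a mitochondrial antioxidant enzyme under NF-kB, had 84.1 and 44.3 CPM (-0.72 ± 0.24, edgeR adjusted p = 0.816).

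Lists of highly expressed housekeeping genes had medians below that of all genes. The 46 nuclear genes of the respiratory chain and ATP synthase had a median of -0.13, with 7 above 0, against 0.36 for the 13 mitochondrial genes of the same complexes. The 51 cytosolic ribosomal proteins had -0.08, the 29 proteasome subunits -0.17, and the 30 genes of glycolysis and the TCA cycle -0.11. With total UMIs matched these medians were -0.01, 0.02, -0.07 and 0.06 in that order, against 0.00 over all genes. Cholesterol and lipid synthesis genes had a median of 0.00 over 22, β-cell heterogeneity markers of 0.06 over 11 and cell-cycle genes of 0.08 over 7. Dedifferentiation and disallowed genes had a median of 0.38 over 9 and NF-kB genes of -0.47 over 7. With total UMIs matched, the medians of these last 2 lists were -0.02 and -0.12. Of other cell types, 8 δ- and PP-cell markers had a median of 0.03, 3 acinar and ductal markers of -0.04, and of the stellate, endothelial and immune markers CD14 alone had counts enough. The δ- and PP-cell list summed to between 6731 and 12399 CPM in INS-low and between 6103 and 12877 CPM in INS-high cells, most of it FXYD2, with medians of 7752 and 7824 CPM. Sums were between 99.7 and 537 CPM for acinar and ductal markers and between 17.95 and 505 CPM for the last list over both groups.

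**Figure D4:**
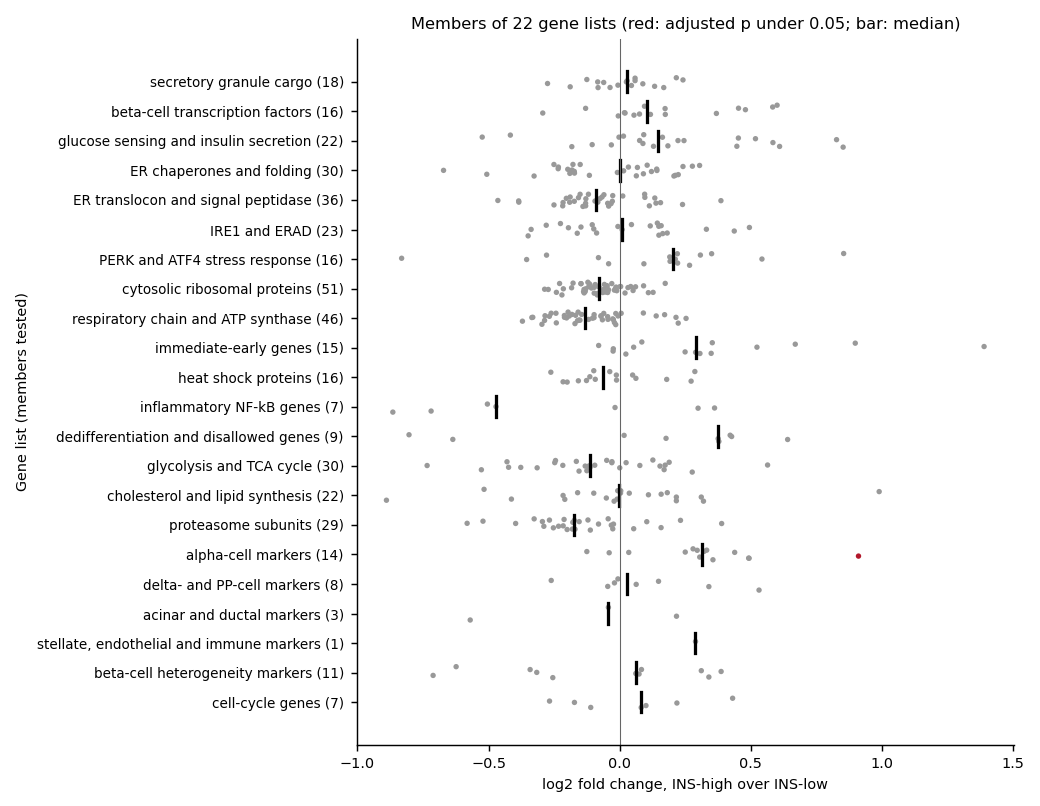
Log2 fold change of INS-high over INS-low β-cells for the members of 22 gene lists (1 point per gene tested, black bar at the median, number of members tested in brackets). TTR among the α-cell markers is the only red point, that is, the only member with an adjusted p under 0.05.

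MALAT1, a nuclear RNA often read as a sign of cell condition, was looked at after its values were seen. It had medians of 118 and 137 CPM and was higher in INS-high cells in 10 of 13 animals (log2 fold change 0.79 ± 0.17, edgeR adjusted p = 0.0613, DESeq2 adjusted p = 0.00103). With total UMIs matched it was 0.16.

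The study compared young with old animals, and here the age groups were compared in how INS-high differed from INS-low cells. By edgeR, 0 of 8078 genes (0.0%) differed in this between 7 old and 6 young animals, with 242 (3.0%) at an unadjusted p under 0.05, and DESeq2 also called 0. TTR had a log2 fold change of 0.92 ± 0.04 in young and 0.92 ± 0.05 in old animals. GNAS had 0.45 ± 0.06 and 0.50 ± 0.09, COX2 0.64 ± 0.09 and 0.57 ± 0.10, and COX3 0.56 ± 0.06 and 0.38 ± 0.06. All 9 called mitochondrial genes had the larger value in young animals, such as ND4 with 0.55 ± 0.10 and 0.30 ± 0.08. None of them passed the test of the age difference. Fitted alone, young animals gave 4 risen genes (TTR, COX3, COX2 and GNAS) and old animals 3 (TTR, COX3 and COX2), and 0 fell in either.

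Females and males gave a like count. Between 6 females and 7 males 0 genes (0.0%) differed in the contrast by edgeR, with 258 (3.19%) at an unadjusted p under 0.05, and 0 by DESeq2. TTR had 0.93 ± 0.05 in females and 0.90 ± 0.03 in males, and GNAS 0.57 ± 0.09 and 0.39 ± 0.05. Each sex alone gave the same 4 genes, TTR, COX3, COX2 and GNAS, as risen and 0 as fallen. With groups of 6 and 7 animals some differences between them have wide errors, such as -0.67 ± 0.58 (SE) for EGFR as old minus young.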

How the data were processed

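Single islet cells of 16 cynomolgus monkeys had been sequenced by a modified STRT protocol. The authors aligned reads to Macaca_fascicularis_5.0 and deposited a table of counts, in which duplicate UMIs are collapsed, for each gene in each cell; the submitters' processing notes name TopHat2 2.0.12 and CASAVA 1.8. Counts were used as deposited. Mitochondrial and ribosomal protein genes have near-identical nuclear copies, so their counts are uncertain to that extent. Coordinates and sequences were not used here, since the gene table given is of a different build.

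The members and gene lists were chosen with earlier results of these data known. Cells were retained, typed and split as the report states, with 3 equal groups of each animal's β-cells, rounded down at both ends. Sums of counts were tested in R 4.3.3 with edgeR 4.0.16 (filterByExpr, TMM, quasi-likelihood test, animal as block, library size without INS, Benjamini-Hochberg adjustment, threshold 0.05), and age, sex and cell type as interactions. Log2 fold changes carry TMM, CPM do not. Animals were the replicates. Medians per animal were compared by exact sign-flip permutation tests (SciPy). The steps were tested on simulated counts.

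Named are up to 12 genes each way by log2 fold change among those past the threshold with a mean of at least 20 CPM and 1 direction in at least 80% of animals, list members, and the 4 hormones. EGFR, CYTB, MALAT1 and the uncalled mitochondrial genes fall outside and were chosen after their values were seen. Within lists, the most abundant members, the known β-cell genes and some members with an unadjusted p under 0.05 were described. Doublets were not called. Alternatives were DESeq2 1.42.0, limma 3.58.1 on means of log2(CPM/10 + 1), no filter, other totals, no block, a split at the median INS level, the 3 groups formed within libraries, thinning, stricter cells, and leaving out each animal.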

Additional observations from a re-analysis of the deposited data

Results flagged for a closer look

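Within the young and the old animals, a lone animal apart from its group was looked for in 34 groups of values (the log2 ratio of INS-high to INS-low for genes and measures), of which chance gives about 1 in 20. There were 5. In young male 4 the ratio of ND4 was 0.859, against 0.323 to 0.462 in the other young animals. In young female 1 the ratio of INS was 1.15 against 1.35 to 1.40, which only describes the split. In young male 3 genes per cell had a ratio of -0.959 against -0.404 to -0.235, and after thinning of -0.324 against -0.0850 to -0.0269. In old female 1 genes after thinning had a ratio of -0.730 against -0.148 to -0.0327 in the other old animals.

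By a test of the difference, 2 genes differed between the split of β-cells by INS and that of α-cells by GCG: TTR by -0.456 and SLC2A2 by -0.914 on the log2 scale (β minus α). SLC2A2 had an edgeR adjusted p of 0.914 in β-cells and 0.495 in α-cells when each was fitted alone.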

How the results depend on the processing

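The 12 risen and 0 fallen genes became 23 and 3 with DESeq2, 13 and 8 with no filter on low counts, 6 and 5 without TMM factors, 5 and 64 with INS also kept in the totals, 1 and 0 with no replicate block, 5 and 0 with a split at the median INS level, 6 and 0 with groups formed within each library, 11 and 3 after thinning to 5000 UMIs a cell (2032 genes tested), 8 and 2225 with limma on mean log values over cells, and, as settings added after the values were seen, 5 and 0 with total UMIs matched and 13 and 2 in cells with over 3000 genes. The cause of these changes was not tested. Leaving out 1 animal gave 10 to 13 risen and 0 to 2 fallen genes. Age and sex differences stayed at 0 genes in each direction with DESeq2, no filter, no TMM and total UMIs matched, and at 0 to 0 when an animal was left out. For the cell types, 0 higher and 2 lower became 1 and 2 with DESeq2, 2 and 3 with no filter, 0 and 1 without TMM and 0 and 0 with total UMIs matched, and 0 to 0 higher and 1 to 2 lower without 1 animal. By limma on mean log values, 4 genes named without a call changed sign and passed, for reasons not tested: EIF4EBP1 -0.57, SCD -0.53, NKX2-2 -0.50 and IAPP -0.32. Genes named without a call passed in the same direction in 40 of 1880 pairs of gene and setting, most of them by limma. Genes per cell after thinning did not pass with total UMIs matched (-54.8). Without 1 animal, UMIs without INS differed by -81299 to -74599, genes by -1473 to -1212, thinned genes by -158 to -98.8 and the spike-in share by 0.429 to 0.566 points. A limit of 5000 CPM on the second hormone left 4 cells and was not run.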
